A study of Mus musculus with 24 samples.

Results

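Peroxisomes are small organelles that are abundant in liver cells. They shorten very-long-chain and branched fatty acids and bile acid precursors by oxidation, cleave phytanic acid, begin the synthesis of ether lipids, and break down the hydrogen peroxide that their oxidases release. Their membrane carries half-transporters for acyl-CoA esters, and a set of proteins called peroxins imports the enzymes, inserts the membrane proteins and lets the organelle divide. The transcripts of 46 mouse genes of this kind were followed here: 34 enzymes, transporters and membrane proteins and 12 peroxins. They were chosen by name for their known role, with earlier results of these data known. Each is read by 1 probe set (the group of probes that measures 1 transcript) that carries no other gene symbol. They are 46 of the 19938 genes with such a probe set, on an array of 35556 probe sets in all.

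Liver RNA came from 24 male litter mates on a C57Bl6 background, all killed at 24 weeks of age after free access to laboratory chow, with 1 array per mouse and 8 mice per genotype. The alb-SREBP-1a∆P mice carry the transgene alb-HA-hSREBP-1a∆P-NT, in which the albumin promoter, active in hepatocytes, drives the HA-tagged N-terminal domain of human SREBP-1a with its MAPK phosphorylation sites made inactive. The alb-SREBP-1a mice carry alb-HA-hSREBP-1a-NT, the same domain with its sites intact, and the C57Bl6 mice are wild type. The N-terminal domain is the active, nuclear form of this lipogenic transcription factor, so both transgenes bypass the cleavage that normally releases it. Each value is the deposited log2 signal. Differences are log2 differences ± standard error from limma fits of 8 against 8 arrays, and a gene is said to have risen or fallen only with an adjusted p (over all probe sets) under 0.05.

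Facts of the whole set of arrays touch every result that follows. The array medians lay between 5.69 and 5.81 in alb-SREBP-1a∆P, between 5.54 and 5.65 in alb-SREBP-1a and between 5.55 and 5.65 in C57Bl6. The values on an array had a standard deviation of 2.02 to 2.09 in alb-SREBP-1a∆P, 2.14 to 2.23 in alb-SREBP-1a and 2.18 to 2.25 in C57Bl6. The alb-SREBP-1a∆P arrays thus had a narrower range of signals than any other array, and in them bright probe sets were more often lower and dim ones more often higher. The 5 hepatocyte markers measured (Alb, Ttr, Apoa1, Tat and Cps1) were bright in every genotype, with a mean signal of 13.39 to 13.53 in alb-SREBP-1a∆P, 13.45 to 13.66 in alb-SREBP-1a and 13.63 to 13.94 in C57Bl6. Against C57Bl6, 5 of them fell in alb-SREBP-1a∆P and 2 in alb-SREBP-1a, where 20.2% and 3.98% of all probe sets fell. In the brightest of 4 groups of genes by signal, 58.5% and 10.7% fell. Of 6 Kupffer cell markers, 4 rose in alb-SREBP-1a∆P and 5 in alb-SREBP-1a, where the mean signal was 8.07 to 8.76 and 8.31 to 8.76, against 7.64 to 8.19 in C57Bl6. Of all probe sets 27.0% and 6.77% rose in these comparisons. Between the lines, 0 of 5 hepatocyte markers passed, and 3 of 6 Kupffer cell markers and 3 of 4 endothelial markers fell in alb-SREBP-1a∆P. There 21.4% of all probe sets fell. The part of these marker shifts in the peroxisomal results was not tested. In bulk liver a smaller share of hepatocytes, less RNA per hepatocyte and the narrower range of signals cannot be told apart.

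Most of the peroxisomal genes fell in alb-SREBP-1a∆P liver. Against C57Bl6, 34 of the 46 fell, 1 rose and 11 did not pass the test, while 20.2% of all probe sets fell and 27.0% rose. The median difference of the 46 was -0.48, against 0.11 over all probe sets. For 19 members the highest of 8 alb-SREBP-1a∆P values was still under the lowest C57Bl6 value, which is the case for 6.47% of all probe sets, and for 0 members did the reverse hold (5.34% of all probe sets). Fewer of these genes passed in alb-SREBP-1a liver. Against C57Bl6, 8 of 46 fell and 1 rose, against 3.98% and 6.77% of all probe sets, with a median difference of -0.10 for the members and 0.01 for all probe sets. For 4 members all alb-SREBP-1a arrays lay below all C57Bl6 arrays, and for 0 above, where all probe sets gave 1.03% and 2.03%. Without alb-SREBP-1a replicates 1 and 2, 5 members fell there, and Abcd3, Crot and Pex7 no longer passed. The share of all probe sets that fell without these arrays was not counted.

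The direct comparison of the transgenic lines sets mice with inactive phosphorylation sites beside mice with intact ones. Transgene level was not compared here, so the sites and other differences between the lines cannot be told apart. In alb-SREBP-1a∆P compared with alb-SREBP-1a, 35 of 46 members fell, 1 rose and 10 did not pass, against 21.4% of all probe sets lower and 22.8% higher. The median difference was -0.36 for the members and 0.08 for all probe sets. The groups were fully apart, with alb-SREBP-1a∆P lower, for 10 members (4.06% of all probe sets) and with alb-SREBP-1a∆P higher for 0 (1.88%). Without alb-SREBP-1a replicates 1 and 2, 31 members fell, with Acaa1a, Phyh, Pxmp2, Acnat2 and Agps lost, and without alb-SREBP-1a∆P replicate 4, 36 fell, with Phyh lost. Shares over all probe sets were not counted with these arrays left out. These comparisons share arrays and are given side by side. By their 3 calls, 22 members fell in alb-SREBP-1a∆P against both others with no call between alb-SREBP-1a and C57Bl6, and 7 were lower in all 3 comparisons: Ehhadh, Hacl1, Abcd3, Pxmp4, Crot, Ephx2 and Pex7. The first pattern held for 47.8% of the members, against 13.6% of all probe sets and 41.3% of the genes in the brightest of 4 signal groups described next, and the other for 15.2%, against 1.59% and 6.72%. The members Hao2, Uox, Nudt7, Pex14 and Pex26 passed in no comparison on the deposited values. After each array was centred on its median, a scaling described below, Uox and Nudt7 fell in alb-SREBP-1a∆P against both other genotypes. Pex14 and Pex26 then fell in it against alb-SREBP-1a.

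**Figure D1:**
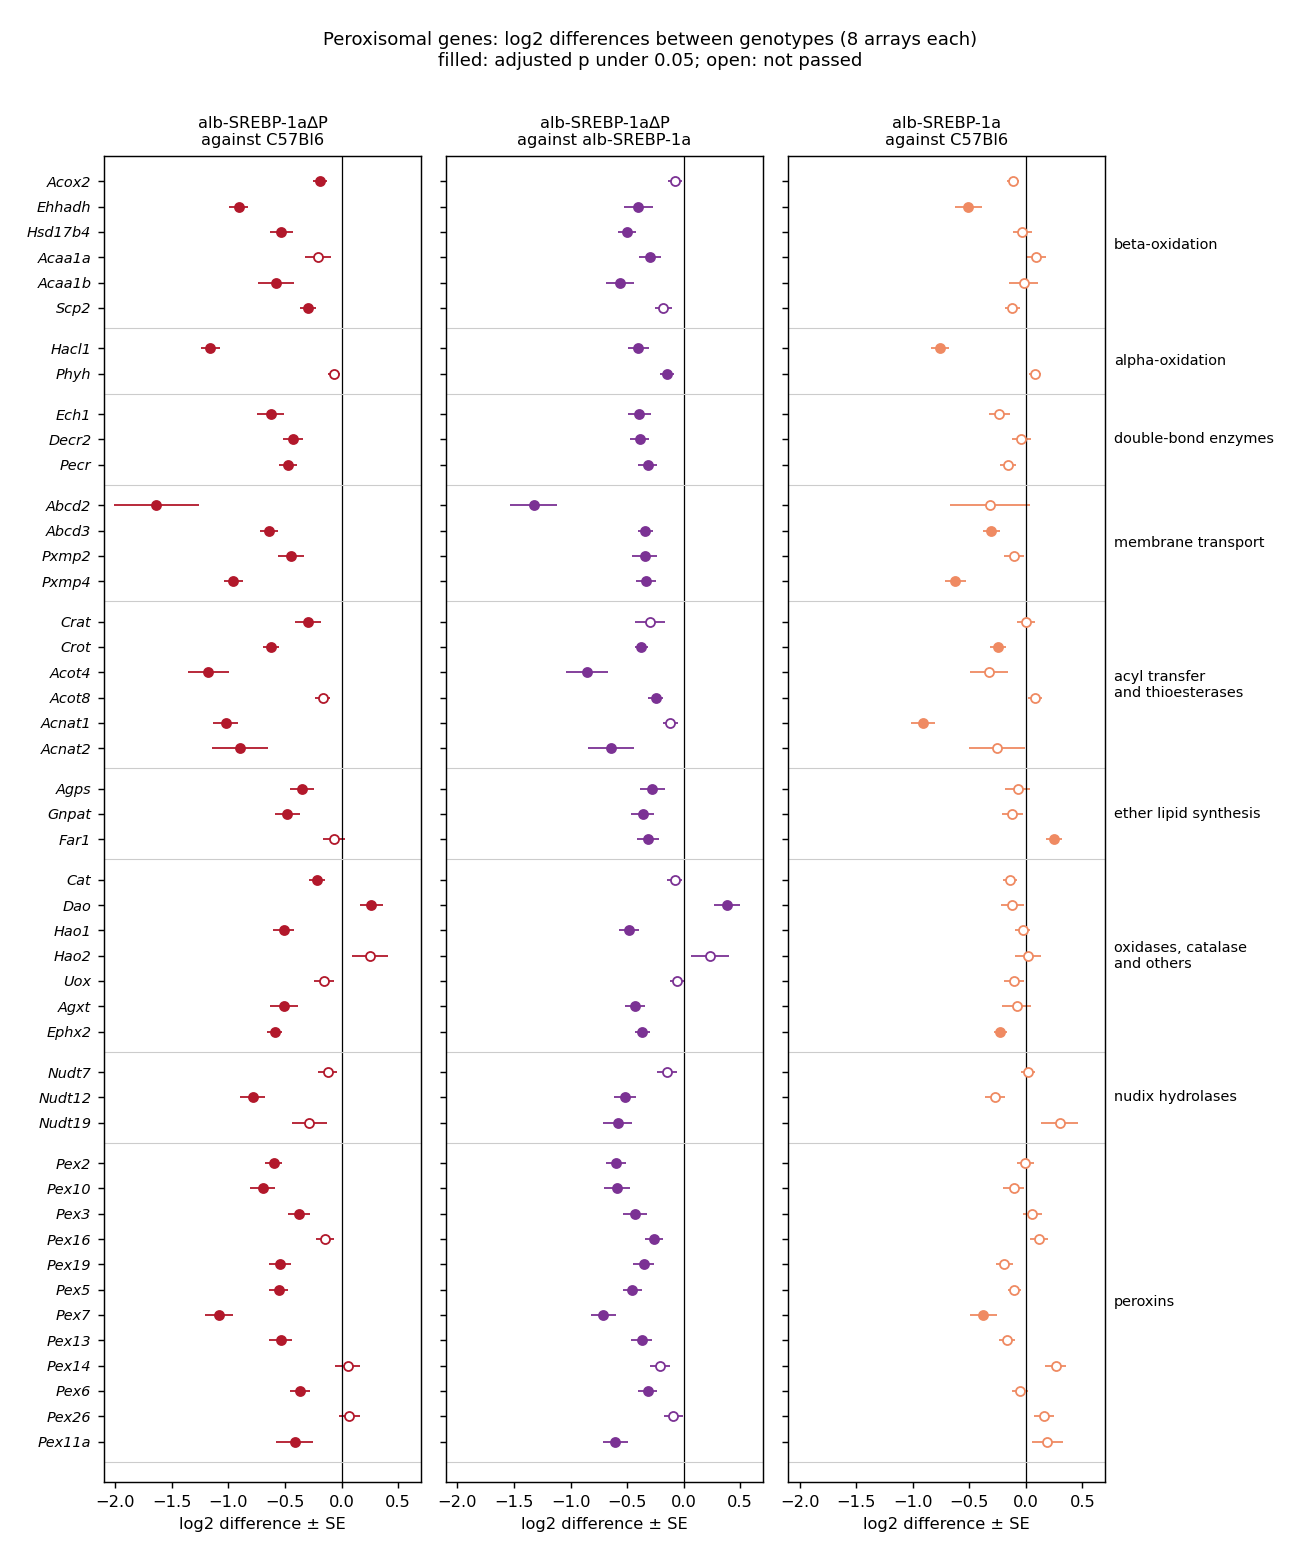
Log2 difference ± SE (horizontal axis) of each of the 46 genes (vertical axis, grouped by role) in the 3 comparisons of 8 against 8 arrays, filled where the adjusted p is under 0.05. In both alb-SREBP-1a∆P panels most points lie left of 0, with Abcd2 farthest out at -1.64 and -1.32, while most alb-SREBP-1a points lie near 0 apart from Acnat1, Hacl1, Pxmp4 and Ehhadh.

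The members were read by bright probe sets, and brightness has to be set beside these counts. When all 19938 genes were split into 4 groups of equal size by mean signal over the 24 arrays, 36 members lay in the brightest group, 6 in the next and 2 in each of the dimmer ones. In the brightest group 29 of 36 members (80.6%) fell in alb-SREBP-1a∆P against C57Bl6, against 58.5% of all genes there, with median differences of -0.50 and -0.30. In alb-SREBP-1a against C57Bl6 it was 8 of 36 (22.2%) against 10.7% of all genes, with medians of -0.11 and -0.00. In alb-SREBP-1a∆P compared with alb-SREBP-1a it was 28 of 36 (77.8%) against 65.7%, with medians of -0.36 and -0.29. Set against the brightest genes rather than all probe sets, the members' share and median thus stood closer to the background in both comparisons that involve alb-SREBP-1a∆P.

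**Figure D2:**
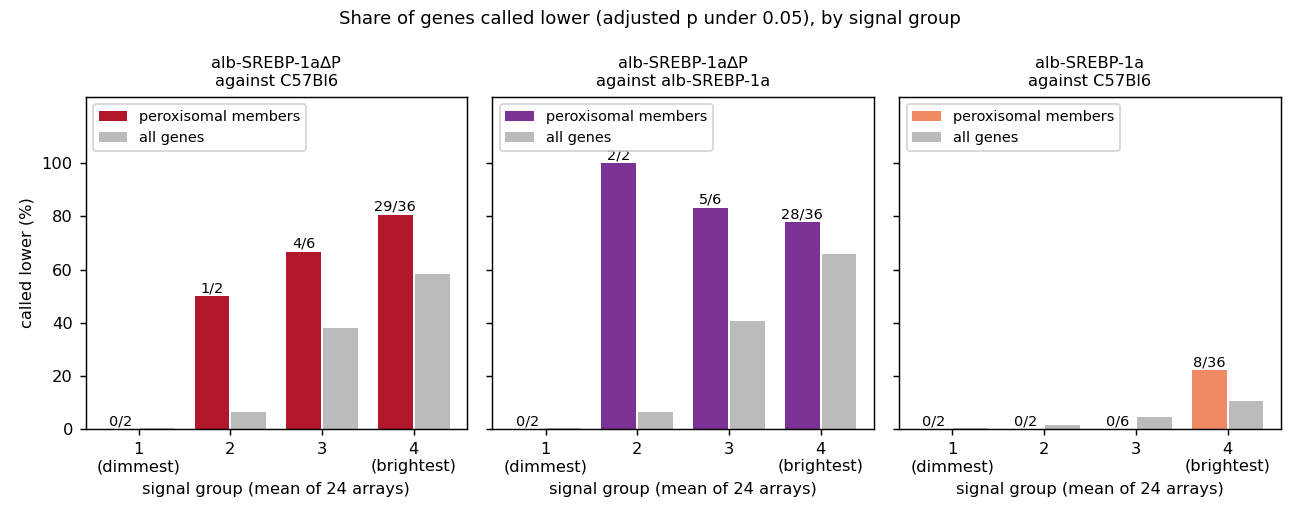
Percent of genes called lower (vertical axis) in each of 4 groups by mean signal (horizontal axis), with members as coloured bars labelled by their counts and all genes as grey bars. In the brightest group the members stand at 80.6%, 77.8% and 22.2% and all genes at 58.5%, 65.7% and 10.7%.

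Scaling of the arrays set the size of the counts that involve alb-SREBP-1a∆P. In alb-SREBP-1a∆P against C57Bl6, 28 members fell after quantile normalization, 41 after centring each array on its median and 23 after cyclic loess, against 34 on the deposited values. They shifted the overall median by -0.14, -0.16 and -0.11. Relative to that median, the members' median was -0.58 as deposited, -0.32 after quantile normalization, -0.58 after centring and -0.27 after cyclic loess. Relative to the median of the brightest genes it was -0.18, -0.21, -0.18 and -0.21 in the same order. Over all probe sets, 18.8% fell and 12.9% rose after quantile normalization, 28.7% and 13.4% after centring, and 15.3% and 16% after cyclic loess. Of the brightest genes 37.7%, 74.3% and 28.0% fell under these scalings. In alb-SREBP-1a∆P compared with alb-SREBP-1a the counts were 20, 44 and 16, against 35 as deposited, and the shifts of the overall median -0.10, -0.17 and -0.09. The members' median relative to it was -0.44 as deposited and -0.22, -0.44 and -0.15 under the same scalings. Relative to the median of the brightest genes the members' median was -0.07 as deposited and -0.13, -0.07 and -0.12 under these scalings. For all probe sets, 13.8% fell and 9.62% rose after quantile normalization, 32.1% and 10.1% after centring, and 10.4% and 11.3% after cyclic loess, and of the brightest genes 23.7%, 87.5% and 13.5% fell. The calls that cyclic loess kept were 23 in alb-SREBP-1a∆P against C57Bl6 and 16 between the lines. In alb-SREBP-1a against C57Bl6 the members that fell numbered 8, 6 and 8, against 8 as deposited, which is 17.4% of the members. In the same order 5.63%, 3.22% and 5.04% of all probe sets fell there, against 3.98% as deposited. Of the brightest genes 15.5%, 8.08% and 14.5% fell, against 10.7% as deposited. After quantile normalization and cyclic loess the members' share thus stood close to that of the brightest genes.

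**Figure D3:**
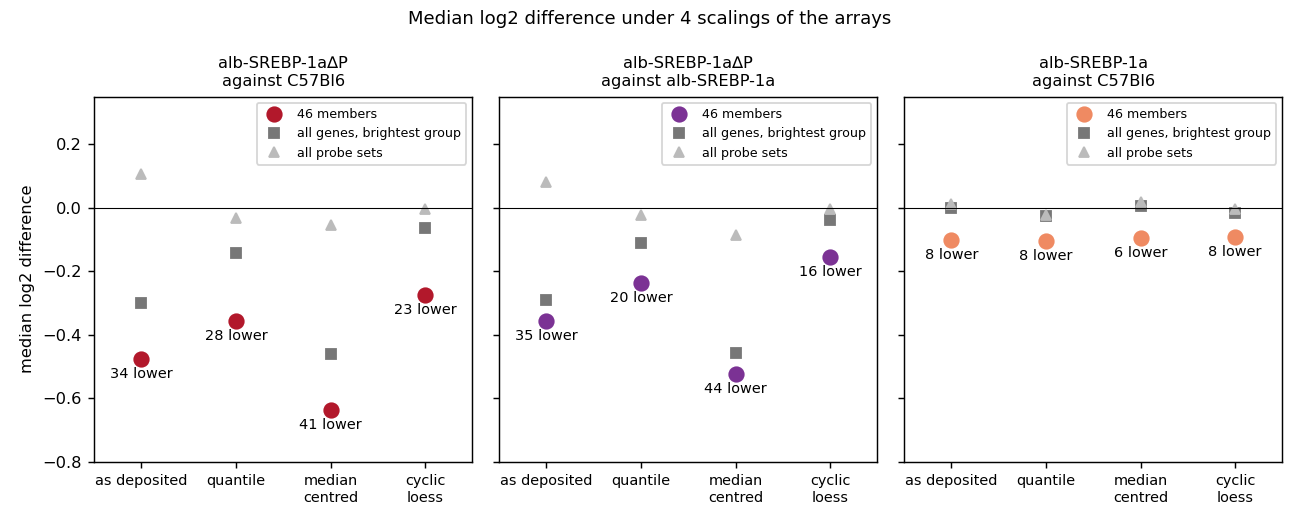
Median log2 difference (vertical axis) under 4 scalings (horizontal axis) for the 46 members, for all genes of the brightest group and for all probe sets, with the number of members that fell. The members lie lowest under every scaling, at -0.48, -0.36, -0.64 and -0.27 in alb-SREBP-1a∆P against C57Bl6, and at -0.36, -0.24, -0.52 and -0.16 between the transgenic lines.

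Sterol regulatory elements are the sites that SREBP proteins bind, and PPARα with its partner RXR binds direct repeats and is the classical inducer of peroxisomal enzymes in rodent liver. RefSeq promoters (GRCm38.p6), from 250 bases before to 50 after the start site, were found for 38 of the 46 members, with 47 start sites. The 9 letters TCACNCCAC of a sterol regulatory element, read on both strands, were present in 1 of these 47, in Ehhadh, and in 1.24% of all 32851 promoters. The E-box CACGTG, which SREBP proteins can also bind, was present in 3 (Acot4, Gnpat and Dao) and in 7.15% of all promoters. A direct repeat of AGGNCA with 1 base between the copies was present in 0 member promoters and in 0.381% of all. With a share this small, 0 of 47 says nothing about PPARα binding. Sites with other letters or outside this window were not searched. None of these motifs overlapped in the members, and a match is no sign of binding. The 250 bases before the start site are shown for 3 members, 5′ to 3′ on the strand of the gene, with matches in capitals. Pex7, Acnat1 and Pxmp4, which differed more than Ehhadh in alb-SREBP-1a∆P against C57Bl6, held no match and are not shown. Ehhadh (chr16:21787835-21788084, minus strand) holds the sterol regulatory element, on the opposite strand from position -171, Acot4 (chr12:84038129-84038378, plus strand) the E-box from position -66, and Hacl1 (chr14:31640966-31641215, minus strand) no match.
Ehhadh: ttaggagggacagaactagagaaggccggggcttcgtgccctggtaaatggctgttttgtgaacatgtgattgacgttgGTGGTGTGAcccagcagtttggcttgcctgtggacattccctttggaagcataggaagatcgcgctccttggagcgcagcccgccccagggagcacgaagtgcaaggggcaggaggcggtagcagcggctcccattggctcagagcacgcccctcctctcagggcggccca
Acot4: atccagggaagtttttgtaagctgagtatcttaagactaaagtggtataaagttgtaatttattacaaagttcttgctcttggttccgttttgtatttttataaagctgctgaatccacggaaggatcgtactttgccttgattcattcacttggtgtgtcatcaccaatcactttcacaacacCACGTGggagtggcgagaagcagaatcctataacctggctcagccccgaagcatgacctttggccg
Hacl1: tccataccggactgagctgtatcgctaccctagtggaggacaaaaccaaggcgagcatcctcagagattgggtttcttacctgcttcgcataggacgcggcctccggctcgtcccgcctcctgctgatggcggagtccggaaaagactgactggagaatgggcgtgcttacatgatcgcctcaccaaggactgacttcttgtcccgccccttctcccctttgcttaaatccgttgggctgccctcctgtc

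In peroxisomal beta-oxidation an oxidase, a bifunctional hydratase and dehydrogenase, and a thiolase act in turn, and 5 of 6 members of this chain fell in alb-SREBP-1a∆P against C57Bl6. In that comparison 20.2% of all probe sets fell, and 58.5% of the brightest genes, the signal group of these members. The call was clearest for Ehhadh, the L-bifunctional enzyme, which had a lowest, median and highest signal of 9.49, 9.76 and 10.02 in alb-SREBP-1a∆P, 9.66, 10.21 and 10.65 in alb-SREBP-1a and 10.53, 10.74 and 10.84 in C57Bl6. No alb-SREBP-1a∆P array reached the C57Bl6 range, and 7 of 8 alb-SREBP-1a arrays lay below it. Ehhadh fell by 0.91 ± 0.09 in alb-SREBP-1a∆P against C57Bl6 (adjusted p = 7.65e-07) and by 0.51 ± 0.12 in alb-SREBP-1a against C57Bl6 (adjusted p = 0.00947). Between the lines it fell by 0.40 ± 0.13 in alb-SREBP-1a∆P (adjusted p = 0.0192), a call lost after quantile normalization and cyclic loess. Hsd17b4, the D-bifunctional enzyme that handles branched acids and bile acid precursors, separated alb-SREBP-1a∆P from both other genotypes. Its signal was 9.94 to 10.51 in alb-SREBP-1a∆P, 10.67 to 10.91 in alb-SREBP-1a and 10.54 to 11.19 in C57Bl6. It fell by 0.53 ± 0.10 against C57Bl6 and by 0.50 ± 0.08 against alb-SREBP-1a, while alb-SREBP-1a differed from C57Bl6 by -0.03 (95% interval -0.20 to 0.14).

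The thiolases of this chain are Acaa1a and Acaa1b, and the difference between them was not tested. Acaa1b had a lowest, median and highest signal of 9.35, 9.98 and 10.34 in alb-SREBP-1a∆P, 10.30, 10.49 and 10.66 in alb-SREBP-1a and 10.09, 10.45 and 11.07 in C57Bl6, and fell by 0.58 ± 0.16 against C57Bl6 and 0.56 ± 0.12 against alb-SREBP-1a. Its paralog Acaa1a had 7.53, 7.83 and 8.16 in alb-SREBP-1a∆P, 7.99, 8.19 and 8.26 in alb-SREBP-1a and 7.72, 8.08 and 8.40 in C57Bl6. Acaa1a fell by 0.29 ± 0.10 against alb-SREBP-1a, a call lost after quantile normalization (-0.09) and cyclic loess (-0.01). Its difference of -0.21 from C57Bl6 had an interval of -0.45 to 0.04, and after centring it passed, at -0.37 (adjusted p = 0.0156). Both are thiolases of close sequence, and whether their probes read both transcripts was not tested. Scp2, whose long form is a thiolase for branched chains, fell by 0.30 ± 0.07 in alb-SREBP-1a∆P against C57Bl6, with all arrays below. Acox2, the oxidase for bile acid precursors, gave 10.26, 10.40 and 10.59 in alb-SREBP-1a∆P, 10.37, 10.50 and 10.55 in alb-SREBP-1a and 10.49, 10.60 and 10.71 in C57Bl6. It fell by 0.19 ± 0.06 against C57Bl6 on the deposited values (adjusted p = 0.0222), a call lost with the replicate block and after quantile normalization, and the sign turned after cyclic loess, at 0.01. Cyclic loess also ended the calls of Acaa1b and Scp2 against C57Bl6.

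Hacl1, the lyase that cleaves the hydroxylated product of phytanic acid in alpha-oxidation, was lower in both transgenic lines. Its lowest, median and highest signal was 10.25, 10.48 and 10.81 in alb-SREBP-1a∆P, 10.65, 10.91 and 11.06 in alb-SREBP-1a and 11.52, 11.61 and 11.83 in C57Bl6. Neither line reached the lowest C57Bl6 mouse. Hacl1 fell by 1.16 ± 0.08 in alb-SREBP-1a∆P against C57Bl6 (adjusted p = 2.38e-08), which is 2.23-fold, by 0.76 ± 0.08 in alb-SREBP-1a against C57Bl6 (adjusted p = 9.88e-06) and by 0.40 ± 0.09 between the lines (adjusted p = 0.00268). Phyh, which adds the hydroxyl group in the preceding step, had differences near 0. It had 12.42, 12.53 and 12.62 in alb-SREBP-1a∆P, 12.57, 12.65 and 12.86 in alb-SREBP-1a and 12.49, 12.62 and 12.69 in C57Bl6, with differences from C57Bl6 of -0.07 (interval -0.19 to 0.05) in alb-SREBP-1a∆P and 0.08 (interval -0.04 to 0.20) in alb-SREBP-1a. Between the lines it fell by 0.15 ± 0.06 (adjusted p = 0.0482), a call lost with the replicate block and after quantile normalization and cyclic loess. In alb-SREBP-1a∆P against C57Bl6 its sign turned under both of these scalings, while after centring it fell there, at -0.23 (adjusted p = 0.00649). All 3 enzymes that handle double bonds fell in alb-SREBP-1a∆P against C57Bl6 and against alb-SREBP-1a. So did 58.5% and 65.7% of the brightest genes, their signal group, and 20.2% and 21.4% of all probe sets. The dienoyl-CoA isomerase Ech1 fell by 0.63 ± 0.12, the 2,4-dienoyl-CoA reductase Decr2 by 0.43 ± 0.09 and the trans-2-enoyl-CoA reductase Pecr by 0.47 ± 0.08 against C57Bl6. The falls against alb-SREBP-1a were 0.39 ± 0.10, 0.39 ± 0.08 and 0.32 ± 0.08, of which Decr2 alone passed under every scaling, and none of them passed in alb-SREBP-1a against C57Bl6.

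All 4 membrane members fell in alb-SREBP-1a∆P against both other genotypes. Against C57Bl6 and alb-SREBP-1a, 20.2% and 21.4% of all probe sets and 58.5% and 65.7% of the brightest genes fell. Abcd2, a half-transporter for very-long-chain acyl-CoA, had a lowest, median and highest signal of 4.71, 5.29 and 6.13 in alb-SREBP-1a∆P, 6.16, 6.74 and 7.15 in alb-SREBP-1a and 5.41, 7.07 and 8.15 in C57Bl6. The C57Bl6 mice were widely spread, with a standard deviation of 1.04 against 0.53 in alb-SREBP-1a∆P and 0.35 in alb-SREBP-1a, and 5 of 8 alb-SREBP-1a∆P mice lay below all of them. Abcd2 fell by 1.64 ± 0.38 against C57Bl6 (adjusted p = 0.00209), which is 3.11-fold, and by 1.32 ± 0.21 against alb-SREBP-1a (adjusted p = 0.00028), where all 8 arrays lay below. Alb-SREBP-1a differed from C57Bl6 by -0.31, with an interval of -1.06 to 0.43. Abcd3, the abundant half-transporter also known as PMP70, had 10.65, 10.80 and 10.94 in alb-SREBP-1a∆P, 11.004, 11.14 and 11.28 in alb-SREBP-1a and 11.22, 11.43 and 11.79 in C57Bl6. The 3 genotypes formed steps, with a fall of 0.64 ± 0.08 in alb-SREBP-1a∆P and 0.30 ± 0.08 in alb-SREBP-1a against C57Bl6, and of 0.34 ± 0.07 between the lines, of which the alb-SREBP-1a call was lost with the replicate block. Pxmp4, a peroxisomal membrane protein, had 9.68, 9.81 and 9.96 in alb-SREBP-1a∆P, 9.90, 10.20 and 10.40 in alb-SREBP-1a and 10.53, 10.74 and 11.003 in C57Bl6. Both lines lay wholly below C57Bl6, by 0.96 ± 0.08 in alb-SREBP-1a∆P (adjusted p = 3.75e-07) and by 0.62 ± 0.10 in alb-SREBP-1a (adjusted p = 0.000518). Pxmp2, a membrane channel, fell by 0.45 ± 0.11 in alb-SREBP-1a∆P against C57Bl6 and by 0.34 ± 0.11 against alb-SREBP-1a, and neither call was kept by quantile normalization or cyclic loess. The call of Pxmp4 between the lines was lost under the same pair of scalings.

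**Figure D4:**
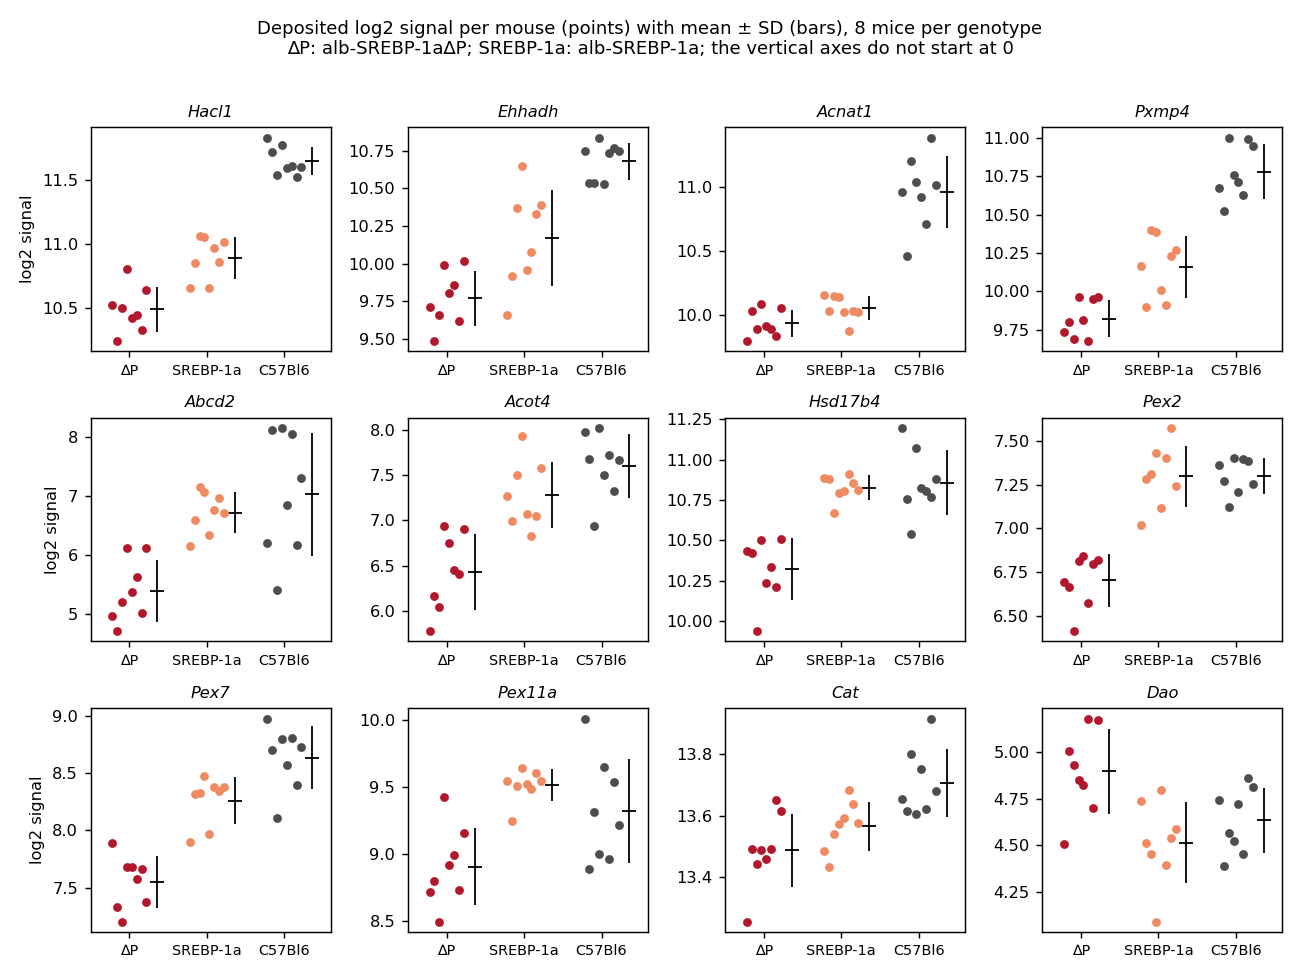
Deposited log2 signal (vertical axes, not starting at 0) of 12 members in each mouse, with genotype mean ± SD, for alb-SREBP-1a∆P, alb-SREBP-1a and C57Bl6 from left to right. Hacl1, Pxmp4 and Acnat1 are lower in both lines than in all C57Bl6 mice, Hsd17b4, Pex2 and Pex7 set alb-SREBP-1a∆P apart from both others, and Dao is the member that is higher in alb-SREBP-1a∆P on the deposited values but not after quantile normalization (-0.03) or cyclic loess (-0.02).

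The next members move acyl groups between carriers. Acnat1, which in the mouse joins fatty acids to taurine, was low in both lines. Its lowest, median and highest signal was 9.80, 9.90 and 10.09 in alb-SREBP-1a∆P, 9.88, 10.03 and 10.16 in alb-SREBP-1a and 10.46, 10.99 and 11.39 in C57Bl6. It fell by 1.02 ± 0.11 in alb-SREBP-1a∆P (adjusted p = 2.01e-06) and by 0.91 ± 0.10 in alb-SREBP-1a (adjusted p = 3.51e-05) against C57Bl6. Between the lines the difference was -0.12 (interval -0.26 to 0.02, adjusted p = 0.153). On the deposited values it was the member that fell in both lines against C57Bl6 and did not pass between them. Its sign between the lines turned after quantile normalization and cyclic loess, while after centring it passed there, at -0.29 (adjusted p = 0.0035). Its close paralog Acnat2 had 5.98, 6.72 and 7.38 in alb-SREBP-1a∆P, 6.42, 7.47 and 7.79 in alb-SREBP-1a and 6.49, 7.88 and 8.32 in C57Bl6, and the 3 ranges overlapped. Acnat2 fell by 0.90 ± 0.25 in alb-SREBP-1a∆P against C57Bl6 (adjusted p = 0.00699) and by 0.64 ± 0.21 against alb-SREBP-1a (adjusted p = 0.0194), a call lost after quantile normalization and cyclic loess, and cross-reading between these paralogs was not tested.

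Acot4, a thioesterase that in the mouse cleaves succinyl-CoA in peroxisomes, fell in alb-SREBP-1a∆P against both other genotypes. It had a lowest, median and highest signal of 5.77, 6.43 and 6.93 in alb-SREBP-1a∆P, 6.83, 7.17 and 7.93 in alb-SREBP-1a and 6.93, 7.68 and 8.02 in C57Bl6. It fell by 1.18 ± 0.18 against C57Bl6 (adjusted p = 7.5e-05), or 2.26-fold, and by 0.85 ± 0.19 against alb-SREBP-1a (adjusted p = 0.00207), while alb-SREBP-1a differed from C57Bl6 by -0.33 (interval -0.68 to 0.03). Acot8, a thioesterase of broad chain length, fell against alb-SREBP-1a by 0.25 ± 0.07, a call lost after quantile normalization (-0.10) and cyclic loess (-0.02). Crot, the carnitine octanoyltransferase that passes shortened chains on to mitochondria, fell in all comparisons, by 0.62 ± 0.07 in alb-SREBP-1a∆P and 0.24 ± 0.07 in alb-SREBP-1a against C57Bl6 and by 0.38 ± 0.06 between the lines. The alb-SREBP-1a call against C57Bl6 was lost after quantile normalization (adjusted p = 0.0811), centring (adjusted p = 0.0537) and cyclic loess (adjusted p = 0.053). The spread of Crot in alb-SREBP-1a∆P was small, from 11.10 to 11.19 over 8 mice. Crat, the carnitine acetyltransferase, had 8.24, 8.61 and 9.13 in alb-SREBP-1a∆P, 8.55, 8.96 and 9.26 in alb-SREBP-1a and 8.85, 8.90 and 9.05 in C57Bl6. It fell by 0.29 ± 0.12 in alb-SREBP-1a∆P against C57Bl6 (adjusted p = 0.0462), a call that the replicate block, quantile normalization and cyclic loess each ended, and alb-SREBP-1a differed from C57Bl6 by 0.00 (interval -0.17 to 0.18).

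Ether lipid synthesis starts with Gnpat and Agps, and Far1 supplies the fatty alcohol. In alb-SREBP-1a∆P against C57Bl6, Gnpat fell by 0.48 ± 0.11 and Agps by 0.35 ± 0.11, and the call of Gnpat was lost after cyclic loess (-0.23, adjusted p = 0.0813). Far1 went with the other line. Its lowest, median and highest signal was 4.73, 5.21 and 5.47 in alb-SREBP-1a∆P, 5.32, 5.51 and 5.62 in alb-SREBP-1a and 5.02, 5.26 and 5.38 in C57Bl6. It was the only member that rose in alb-SREBP-1a, by 0.25 ± 0.07 (adjusted p = 0.0271), with 6 of 8 arrays above every C57Bl6 array. Centring each array on its median, all 24 arrays in 1 fit and the replicate block each ended that call. Against alb-SREBP-1a, Far1 fell by 0.32 ± 0.10 in alb-SREBP-1a∆P, and it differed from C57Bl6 there by -0.07 (interval -0.28 to 0.14).

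Cat, the catalase that marks the organelle, had small differences. Its lowest, median and highest signal was 13.25, 13.49 and 13.65 in alb-SREBP-1a∆P, 13.43, 13.57 and 13.68 in alb-SREBP-1a and 13.61, 13.67 and 13.92 in C57Bl6. The alb-SREBP-1a∆P mice overlapped C57Bl6 in 2 of 8 arrays. Cat fell by 0.22 ± 0.07 against C57Bl6 (adjusted p = 0.0178), lost after cyclic loess, and differed by -0.14 (interval -0.27 to -0.01, adjusted p = 0.158) in alb-SREBP-1a against C57Bl6 and by -0.08 (interval -0.22 to 0.06) between the lines. After centring Cat passed between the lines, at -0.25 (adjusted p = 0.00847). Among enzymes of glyoxylate handling, the glycolate oxidase Hao1 fell by 0.51 ± 0.09 and the aminotransferase Agxt by 0.51 ± 0.13 in alb-SREBP-1a∆P against C57Bl6, and by 0.49 ± 0.09 and 0.43 ± 0.09 against alb-SREBP-1a. Both calls of Agxt were lost after cyclic loess, at -0.28 and -0.19. Ephx2, the soluble epoxide hydrolase, separated every pair of genotypes completely, at 10.77 to 11.09 in alb-SREBP-1a∆P, 11.17 to 11.35 in alb-SREBP-1a and 11.39 to 11.69 in C57Bl6. It fell by 0.59 ± 0.07 in alb-SREBP-1a∆P and 0.23 ± 0.06 in alb-SREBP-1a against C57Bl6, and by 0.37 ± 0.06 between the lines. Uox, the urate oxidase, had 11.33, 11.47 and 11.58 in alb-SREBP-1a∆P, 11.34, 11.57 and 11.67 in alb-SREBP-1a and 11.39, 11.63 and 11.96 in C57Bl6, with no call in any comparison on the deposited values. After centring it fell in alb-SREBP-1a∆P against C57Bl6 (-0.32, adjusted p = 0.0112) and against alb-SREBP-1a (-0.22, adjusted p = 0.0274).

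Dao and Hao2, oxidases of D-amino acids and of 2-hydroxy acids, were the 2 members in the dimmest of the 4 signal groups. Dao was the only member that rose in alb-SREBP-1a∆P, with a lowest, median and highest signal of 4.51, 4.89 and 5.18 in alb-SREBP-1a∆P, 4.09, 4.53 and 4.80 in alb-SREBP-1a and 4.39, 4.64 and 4.86 in C57Bl6. It differed by 0.26 ± 0.10 from C57Bl6 (adjusted p = 0.0465) and by 0.38 ± 0.11 from alb-SREBP-1a (adjusted p = 0.0124), while 53.8% of all genes in that dim group rose in the first of these comparisons and 43.7% in the other. Against C57Bl6 its sign turned after quantile normalization (-0.03) and cyclic loess (-0.02), and without alb-SREBP-1a∆P replicate 4 it did not pass. Hao2 had 3.82, 4.31 and 5.22 in alb-SREBP-1a∆P, 3.89, 4.07 and 4.57 in alb-SREBP-1a and 3.91, 4.17 and 4.53 in C57Bl6, with overlapping ranges and no call. The nudix hydrolases, which cleave CoA and nicotinamide dinucleotides, were 3 of the members. Nudt12, an NADH diphosphatase, fell by 0.79 ± 0.11 in alb-SREBP-1a∆P against C57Bl6. Nudt19, a CoA diphosphatase, fell by 0.58 ± 0.13 against alb-SREBP-1a, a call lost after cyclic loess (-0.30), and differed from C57Bl6 by -0.28 (interval -0.61 to 0.05). Nudt7, another CoA diphosphatase, passed in no comparison on the deposited values. After centring it fell in alb-SREBP-1a∆P against C57Bl6 (-0.28, adjusted p = 0.00785) and against alb-SREBP-1a (-0.31, adjusted p = 0.00719).

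Of the 12 peroxins, 9 fell in alb-SREBP-1a∆P against C57Bl6, 1 in alb-SREBP-1a against C57Bl6 and 10 in alb-SREBP-1a∆P compared with alb-SREBP-1a, with 0 higher in each. These are 75%, 8.33% and 83.3% of them, against 20.2%, 3.98% and 21.4% of all probe sets and 58.5%, 10.7% and 65.7% of the brightest genes. Pex7, the receptor that imports enzymes bearing the second type of peroxisomal targeting signal, among them the thiolases, Phyh and Agps, had the largest difference from C57Bl6. Its lowest, median and highest signal was 7.20, 7.62 and 7.89 in alb-SREBP-1a∆P, 7.89, 8.33 and 8.47 in alb-SREBP-1a and 8.11, 8.71 and 8.98 in C57Bl6. All alb-SREBP-1a∆P mice lay below both other genotypes, with falls of 1.09 ± 0.12 against C57Bl6 (adjusted p = 4.13e-06), or 2.12-fold, and 0.71 ± 0.11 against alb-SREBP-1a (adjusted p = 0.000257). In alb-SREBP-1a against C57Bl6 it fell by 0.38 ± 0.12 with an adjusted p of 0.0496, and without alb-SREBP-1a replicates 1 and 2, after centring or with the replicate block that call was lost. Pex5, the receptor for the first and most common signal, fell by 0.56 ± 0.08 in alb-SREBP-1a∆P against C57Bl6 and by 0.45 ± 0.08 against alb-SREBP-1a, with complete separation in both, and cyclic loess ended the call against alb-SREBP-1a.

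The RING peroxins Pex2 and Pex10, which ubiquitinate the receptors for recycling, followed the mutant line. Pex2 had a lowest, median and highest signal of 6.41, 6.74 and 6.84 in alb-SREBP-1a∆P, 7.02, 7.30 and 7.57 in alb-SREBP-1a and 7.12, 7.32 and 7.40 in C57Bl6. It fell by 0.60 ± 0.08 against C57Bl6 (adjusted p = 1.16e-05) and by 0.60 ± 0.09 against alb-SREBP-1a (adjusted p = 0.000204), and alb-SREBP-1a differed from C57Bl6 by -0.00 (interval -0.17 to 0.16). Pex10 fell by 0.70 ± 0.11 and 0.59 ± 0.11 in the same comparisons. At the docking site Pex13 fell by 0.54 ± 0.10 in alb-SREBP-1a∆P against C57Bl6, and its partner Pex14 did not pass. Pex14 had 7.51, 7.72 and 8.13 in alb-SREBP-1a∆P, 7.82, 7.96 and 8.25 in alb-SREBP-1a and 7.505, 7.66 and 8.16 in C57Bl6, a difference of 0.05 (interval -0.17 to 0.28) in alb-SREBP-1a∆P and of 0.27 (interval 0.07 to 0.46, adjusted p = 0.0794) in alb-SREBP-1a against C57Bl6. After cyclic loess Pex14 rose in alb-SREBP-1a∆P against C57Bl6, by 0.31 (adjusted p = 0.0432), the 1 member that did under that scaling. In alb-SREBP-1a against C57Bl6 it rose without dim probe sets (adjusted p = 0.0413) and with array weights (adjusted p = 0.026). Between the lines it fell in alb-SREBP-1a∆P after centring (adjusted p = 0.00405), without alb-SREBP-1a∆P replicate 4 (adjusted p = 0.0173) and without dim probe sets (adjusted p = 0.0456). In the export complex Pex6, an ATPase, fell by 0.37 ± 0.08 in alb-SREBP-1a∆P against C57Bl6, a call lost after quantile normalization (-0.19) and cyclic loess (-0.10), and its membrane anchor Pex26 differed by 0.07 (interval -0.13 to 0.27). These peroxin pairs were not tested against each other.

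For membrane protein insertion, Pex19, the soluble carrier, fell by 0.54 ± 0.10 and its membrane receptor Pex3 by 0.37 ± 0.10 in alb-SREBP-1a∆P against C57Bl6, while Pex16 differed by -0.15 (interval -0.32 to 0.02). After centring Pex16 passed there, at -0.31 (adjusted p = 0.00607). The call of Pex3 was lost after quantile normalization (-0.21) and cyclic loess (-0.11). All fell against alb-SREBP-1a, by 0.35 ± 0.09, 0.43 ± 0.11 and 0.26 ± 0.08, but with quantile normalization or cyclic loess none of these passed. Pex11a, which elongates the organelle before division and is induced with peroxisome proliferation, had 8.50, 8.86 and 9.42 in alb-SREBP-1a∆P, 9.25, 9.53 and 9.64 in alb-SREBP-1a and 8.89, 9.27 and 10.01 in C57Bl6. It fell by 0.61 ± 0.11 against alb-SREBP-1a (adjusted p = 0.000685), a call kept under every scaling. Against C57Bl6 it fell by 0.42 ± 0.16 (adjusted p = 0.0434), a call that quantile normalization, cyclic loess, array weights and the replicate block each ended. Under cyclic loess the peroxins that still fell against alb-SREBP-1a were Pex2, Pex10, Pex7 and Pex11a.

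As a description of each mouse, the mean signal of the 34 enzymes, transporters and membrane proteins, relative to the C57Bl6 mean, ran from -0.61 to -0.32 in alb-SREBP-1a∆P, from -0.25 to -0.10 in alb-SREBP-1a and from -0.12 to 0.08 in C57Bl6. For the 12 peroxins it ran from -0.62 to -0.20, from -0.13 to 0.08 and from -0.11 to 0.17. The alb-SREBP-1a∆P mice lay below all others on both measures. The alb-SREBP-1a mice overlapped C57Bl6 on both, with 8 of 8 means below 0 for the enzymes and 3 of 8 for the peroxins.

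**Figure D5:**
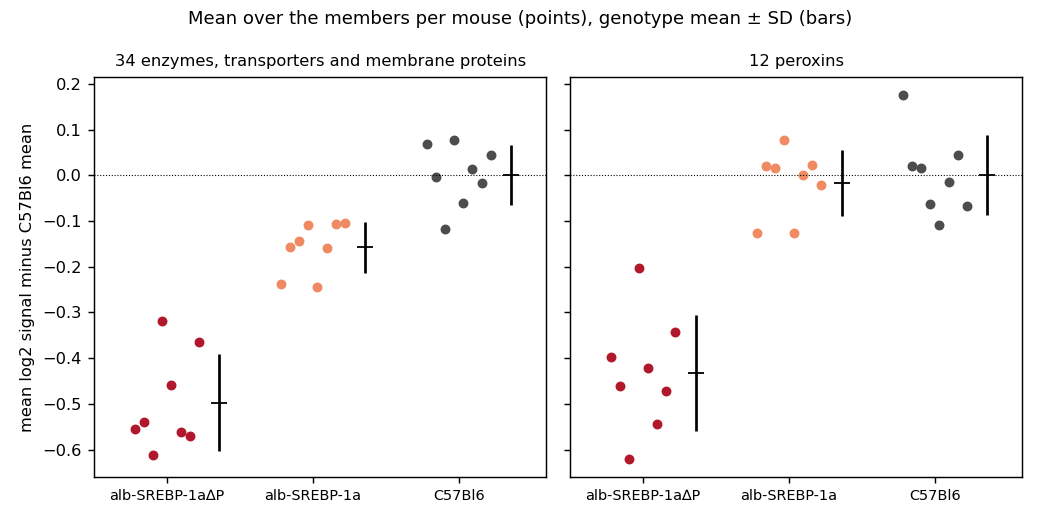
Mean log2 signal over the 34 enzymes, transporters and membrane proteins (left) and the 12 peroxins (right) in each mouse, minus the C57Bl6 mean (vertical axis), with genotype mean ± SD. The alb-SREBP-1a∆P mice lie between -0.61 and -0.32 and between -0.62 and -0.20, below all other mice, and the alb-SREBP-1a mice lie closer to C57Bl6.

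Further genes of peroxisomal function were listed beside the members, and 27 of 34 had a probe set of their own. Of these 17 fell and 1 rose in alb-SREBP-1a∆P against C57Bl6, 4 fell and 0 rose in alb-SREBP-1a against C57Bl6, and 16 fell and 0 rose in alb-SREBP-1a∆P compared with alb-SREBP-1a. The shares that fell were 63%, 14.8% and 59.3%, against 20.2%, 3.98% and 21.4% of all probe sets and 58.5%, 10.7% and 65.7% of the brightest genes. These 27 genes were not split by signal. Dim ones are among them, such as Acot5 and Eci3 with means of 4.19 and 4.26 in alb-SREBP-1a∆P, so neither background is matched to them in signal. The peroxisomal carrier of CoA and nucleotides, Slc25a17, fell by 1.09 ± 0.09 in alb-SREBP-1a∆P and by 0.64 ± 0.09 in alb-SREBP-1a against C57Bl6. Mlycd, malonyl-CoA decarboxylase, fell by 0.99 ± 0.08 in alb-SREBP-1a∆P against C57Bl6, and Acbd5, which tethers peroxisomes to the endoplasmic reticulum, by 0.89 ± 0.12. Of the fission proteins Dnm1l fell by 0.56 ± 0.08, while Fis1 differed by 0.01 and Mff by -0.15 with no call. Of the regulators of peroxisomal genes, Ppara differed by -0.01 in alb-SREBP-1a∆P against C57Bl6 (adjusted p = 0.935) and rose by 0.24 ± 0.08 in alb-SREBP-1a (adjusted p = 0.0494). Its partner Rxra rose by 0.23 ± 0.08 and 0.35 ± 0.09 in the same comparisons. The coactivator Ppargc1a fell by 0.44 ± 0.12 in alb-SREBP-1a∆P against C57Bl6 (adjusted p = 0.00707) and by 0.42 ± 0.10 against alb-SREBP-1a (adjusted p = 0.00356), and differed by -0.02 in alb-SREBP-1a against C57Bl6. Whether these transcripts bear on the members was not tested.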

How the data were processed

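Liver RNA of 24 mice (150 ng each) was hybridised to Affymetrix Mouse Gene 1.0 ST arrays. The authors deposited log2 values made by RMA in Affymetrix Expression Console (1.1 in the methods, which also name Transcriptome Analysis Console 2.0). No source used here gives further settings. RMA scales the arrays to each other, so a change in many genes can move the others. The 35556 probe sets were named by the platform annotation: 21789 carry 1 symbol, 1621 several and 12146 none.

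Each comparison was fitted with limma 3.58.1 (R 4.3.3) as 8 against 8 arrays without a block, two-sided, with Benjamini-Hochberg adjustment over all probe sets and calls under 0.05. The p-values from limma reflect the variation among these mice, and the number of arrays limits precision. The members, gene lists, motifs and tests were chosen with earlier results of these data known. Lowest, median and highest values are given for members that passed with the 6 lowest or highest differences, for the 3 nearest to 0 in each comparison, for Cat and for 2 pairs of paralogs. Alternatives were 1 fit over all 24 arrays, a replicate block, 3 scalings, removal of dim probe sets, a variance trend, array weights, 1 probe set per gene, the mean over probe sets, arrays left out and the methods' t-test, run with its 1.5-fold threshold and after Benjamini-Hochberg. The scripts were tested on simulated data. Protein targeting signals were not analysed here. Replicate numbers were not treated as pairs, since no source used here says that they pair the mice. Python 3.11.15, pandas 2.3.3 and matplotlib 3.10.9 made the figures.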

Additional observations from a re-analysis of the deposited data

Results flagged for a closer look

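In each genotype, the mouse farthest from the others was compared with Dixon's critical gap at 95% for 8 values. Of 138 combinations of member and genotype, 11 passed, where chance alone gives about 1 in 20. In alb-SREBP-1a∆P these were Agxt in replicate 6, at 9.05 with the next value 9.31, and Nudt12 in replicate 4, at 8.36 with the next at 7.94. In alb-SREBP-1a the low values were Acnat1 in replicate 6 (9.88, next 10.03), Acnat2 in replicate 3 (6.42, next 7.25), Hao1 in replicate 5 (9.75, next 9.93), Nudt12 in replicate 5 (8.08, next 8.35) and Pex11a in replicate 2 (9.25, next 9.49). The high ones there were Pex16 in replicate 4 (10.39, next 10.13) and Pex6 in replicate 2 (8.49, next 8.30). In C57Bl6 they were Acot8 in replicate 7 (7.35, next 7.15) and Pex13 in replicate 1 (8.82, next 8.51).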

How the results depend on the processing

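Among members counted as lower, the counts that left the range of 1.5 times were those of alb-SREBP-1a∆P compared with alb-SREBP-1a after quantile normalization (20) and cyclic loess (16), and that of alb-SREBP-1a against C57Bl6 without alb-SREBP-1a replicates 1 and 2 (5, with Abcd3, Crot and Pex7 lost). The methods' t-test at 1.5-fold and an unadjusted p under 0.05 gave 15 members lower in alb-SREBP-1a∆P against C57Bl6, 3 in alb-SREBP-1a against C57Bl6 and 7 between the lines, and 0 higher in each, since it asks for a larger change. The share of all probe sets under that t-test was not counted. At 1.5-fold and a limma adjusted p under 0.05, 15, 3 and 7 members were lower in the same order. So were 2329, 238 and 1406 of all 35556 probe sets, and 800, 52 and 323 of the 4985 brightest genes. The single members counted as higher were less stable. In alb-SREBP-1a∆P against C57Bl6 the count was 0 with the replicate block, after quantile normalization, after centring, without dim probe sets, with a variance trend and without alb-SREBP-1a∆P replicate 4. In alb-SREBP-1a against C57Bl6 it was 0 with all 24 arrays in 1 fit, the replicate block or centring, and 2 with array weights. Between the lines it was 0 after quantile normalization, centring or cyclic loess and without dim probe sets. The cause of these changes was not tested, apart from the removal of Dao with the dim probe sets. Without alb-SREBP-1a∆P replicate 4, 34 members were lower against C57Bl6 and 36 against alb-SREBP-1a, and without alb-SREBP-1a replicates 1 and 2, 31 were lower between the lines. With arrays left out, the shares over all probe sets were not counted.

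Of the same-numbered mice, 1, 2 and 2 of 8 pairs had a correlation over 0.1 (range -0.12 to 0.28 over the 3 comparisons). In these comparisons 3, 2 and 2 mice correlated best with their own number. These values do not settle whether the numbers pair the mice. With the replicate block 31, 7 and 34 members were lower and 0, 0 and 1 higher in alb-SREBP-1a∆P against C57Bl6, alb-SREBP-1a against C57Bl6 and alb-SREBP-1a∆P compared with alb-SREBP-1a. The shares over all probe sets with the block were not counted.

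Some small differences turned sign. In alb-SREBP-1a∆P against C57Bl6, quantile normalization gave 0.0552 for Phyh, -0.0257 for Dao and -0.0816 for Hao2, cyclic loess gave 0.0109 for Acox2, 0.0589 for Acaa1a, 0.0429 for Phyh, 0.0347 for Acot8, -0.0172 for Dao, -0.0693 for Hao2, 0.0345 for Nudt7 and 0.0742 for Pex16, and centring gave -0.106 for Pex14 and -0.0908 for Pex26. In alb-SREBP-1a against C57Bl6, quantile normalization gave -0.0136 for Crat and -0.0373 for Hao2, cyclic loess -0.0113 for Crat and -0.0043 for Hao2, centring 0.0035 for Pex2, array weights 0.022 for Acaa1b, 0.018 for Decr2 and 0.0302 for Pex2, and leaving out alb-SREBP-1a replicates 1 and 2 gave 0.0455 for Pex2. Between the lines, quantile normalization gave 0.0484 for Acox2, 0.0258 for Acnat1, 0.0231 for Uox and -0.0443 for Hao2, and cyclic loess 0.119, 0.0868, 0.0819 and -0.065 for the same genes and 0.0715 for Pex14. Of these, Dao and Acox2 in alb-SREBP-1a∆P against C57Bl6 had passed on the deposited values. The cause was not tested.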
